A study of Mus musculus with 12 samples.

Results

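The insulin and IGF1 signalling chain was followed through 10 genes in the hearts of 12 mice: the receptors Insr and Igf1r, the adaptors Irs1 and Irs2, the phosphoinositide 3-kinase (PI3K) subunits Pik3r1 and Pik3ca, the kinases Akt1 and Akt2, and the AKT-pathway targets Gsk3b and Eif4ebp1. The genes were chosen by symbol, with earlier results of these data known. All 10 were measured, each by 1 probe set, among 19505 genes of a single-colour expression array. DM_AngIV mice were diabetic mice infused with high-dose angiotensin IV, a peptide derived from angiotensin II, at 2.88 mg/kg/day from the end of week 8 to the end of week 24. DM mice were diabetic and are labelled untreated. In both groups diabetes had been brought about by streptozotocin, which destroys the insulin-producing beta cells, injected intraperitoneally on 5 days in a row, and mice were kept only if fasting glucose 2 weeks later was at least 16.7 mM. NC mice, the negative controls, had 5 daily injections of the vehicle. Each group held 4 mice, the samples are myocardium labelled 6 months, and the labels used here name neither strain nor sex. The 3 comparisons ask what diabetes changes in the heart and what angiotensin IV changes on top of it. The labels mention no infusion of a vehicle in DM mice and no insulin treatment. Arrays measure transcripts only, not the phosphorylation through which this chain signals.

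All values are log2 expression levels, on which a difference of 1 is a doubling, and they compare groups within a gene, never 1 gene's level with another's. A gene counted as changed when its limma p, adjusted after Benjamini and Hochberg over the 19505 genes, was below 0.05. A gene counted as above background on an array when it exceeded 4.96, the 95th percentile of 246 reporter control probe sets. The 9 markers listed for ventricular muscle, Myh6, Myl2, Myl3, Tnnt2, Tnni3, Actc1, Ryr2, Pln and Ckm, were above it on every array. Their levels above background do not by themselves separate ventricle from atrium. Atrial muscle signal was not even: the atrial light chain Myl7 exceeded it in DM replicates 1, 2 and 4 and in NC replicates 1 and 3, and in 0 of 4 DM_AngIV arrays, so the main results are also given without those 5 arrays. Across genes, r between any pair of arrays was 0.977 to 0.990. In whole tissue, fewer cells of a type and less RNA per cell cannot be told apart.

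Insulin and IGF1 bind receptor tyrosine kinases that phosphorylate the adaptors IRS1 and IRS2, which in turn recruit PI3K to the membrane. The lipid PIP3 made there brings AKT to its activating kinases, and AKT then phosphorylates GSK3-beta, which releases glycogen synthase, and FoxO transcription factors, which leave the nucleus. Through mTORC1 the chain also phosphorylates 4E-BP1, the product of Eif4ebp1, which in its unphosphorylated form blocks cap-dependent translation. In heart muscle the chain governs glucose uptake, protein synthesis and growth. When insulin is low FoxO factors return to the nucleus, and Insr and Irs2 are known FoxO targets in mammals, as is the Eif4ebp1 counterpart in Drosophila.

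Start-site windows are shown for the member with the largest difference, Pik3r1, for both adaptors, and for Akt1. Of the 8 members with windows, only Akt1 held the FoxO consensus in the spelling searched, GTAAACA or its reverse complement. Other spellings were not searched under that name, so the other windows are not shown to lack a FoxO site. Each window runs from 250 bases before to 50 after a RefSeq gene start in GRCm38.p6. Such windows were available for 8 of the 10 members, with Insr and Eif4ebp1 the others. Letters were searched on both strands, and capitals mark the motif named with each window.

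Pik3r1, most upstream start, chr13:101768168-101768467, minus strand, GC box (GGGCGG): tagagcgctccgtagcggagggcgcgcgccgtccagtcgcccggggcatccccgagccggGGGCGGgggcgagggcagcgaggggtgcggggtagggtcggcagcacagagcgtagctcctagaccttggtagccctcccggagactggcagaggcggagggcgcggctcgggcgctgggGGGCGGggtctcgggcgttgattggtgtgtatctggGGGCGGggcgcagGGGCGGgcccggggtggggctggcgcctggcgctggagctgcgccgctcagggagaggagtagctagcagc

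Irs1, chr1:82291390-82291689, minus strand, insulin response sequence (TGTTTTG): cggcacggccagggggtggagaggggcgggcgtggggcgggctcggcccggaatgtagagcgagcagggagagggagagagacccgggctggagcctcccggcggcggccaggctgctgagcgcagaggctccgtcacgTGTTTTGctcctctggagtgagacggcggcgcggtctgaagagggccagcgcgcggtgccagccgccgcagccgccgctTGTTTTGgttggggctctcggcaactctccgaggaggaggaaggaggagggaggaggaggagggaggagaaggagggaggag

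Irs2, chr8:11008880-11009179, minus strand, insulin response sequence (TGTTTTG): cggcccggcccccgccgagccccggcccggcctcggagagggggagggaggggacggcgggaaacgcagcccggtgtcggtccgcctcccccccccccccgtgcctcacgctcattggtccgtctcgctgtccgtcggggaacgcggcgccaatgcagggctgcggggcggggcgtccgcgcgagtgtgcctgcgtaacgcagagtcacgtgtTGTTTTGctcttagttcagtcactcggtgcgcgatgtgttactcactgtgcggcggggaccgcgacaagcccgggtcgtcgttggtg

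Akt1, most upstream start, chr12:112674835-112675134, minus strand, FoxO consensus (GTAAACA, here as its reverse complement): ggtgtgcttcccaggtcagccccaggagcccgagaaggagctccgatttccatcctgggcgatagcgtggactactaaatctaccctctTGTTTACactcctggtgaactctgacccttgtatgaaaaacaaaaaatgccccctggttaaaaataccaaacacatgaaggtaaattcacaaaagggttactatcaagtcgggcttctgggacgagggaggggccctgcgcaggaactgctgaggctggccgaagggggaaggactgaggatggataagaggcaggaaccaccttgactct

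The Pik3r1 window was 75.7% G and C and held 4 GC boxes, letters bound by the Sp1 family, which 35.7% of all 32851 windows hold. It held neither of the other motifs. The second Pik3r1 start, for which 43.7% of the window is G and C, held none of the 3. Pik3r1 makes its long and short products from different starts, and its single probe set does not separate them. Irs1 held the insulin response letters, first described in genes that insulin represses, at positions -111 and -32 from the start, and Irs2 at position -37, against 6.28% of all windows. Akt1 held the FoxO consensus at position -161, the only such window among the 13 searched for the members, against 3.65% of all windows. By gene, 4.05% of all genes with windows held it. The more downstream Akt1 start held 5 GC boxes, some of which overlap, and no FoxO consensus. A match describes letters in a window and shows no binding.

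Pik3r1 and Eif4ebp1 rose in DM_AngIV hearts against NC hearts, and no member passed the test in the other comparisons. These are the PI3K regulatory subunit that binds phosphorylated adaptors and the translation inhibitor at the end of the chain. The 2 called members of 10 compare with 0.728% of all genes called higher and 0.287% called lower in DM_AngIV against NC. The bases differ, since all 10 members exceeded background on at least 1 array, and 9802 of the 19505 genes did. The members were also chosen with earlier results of these data known. In that comparison the DM_AngIV and NC arrays did not overlap for 5 members, all higher in DM_AngIV, which were Insr, Igf1r, Pik3r1, Akt1 and Eif4ebp1. Among all genes 5.63% were higher without overlap. The other 5 members overlapped. Between DM_AngIV and DM 0 of 10 members were free of overlap, where 5.01% of all genes were.

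**Figure D1:**
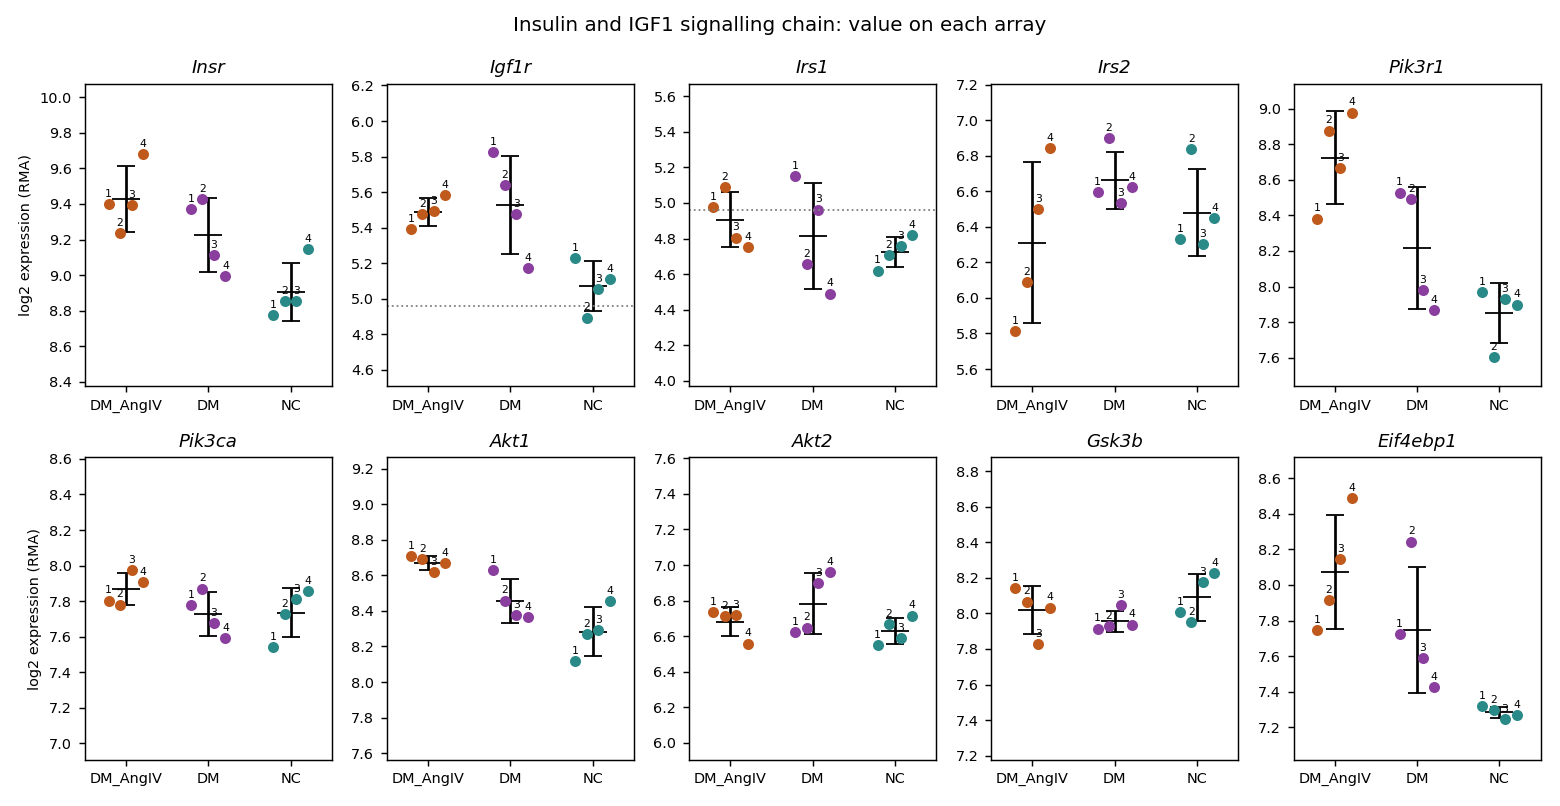
Log2 expression (RMA) of the 10 members on each array, in DM_AngIV, DM and NC from left to right. Points are mice with their replicate numbers, bars are the mean and SD of 4 mice, each panel spans the same log2 range, and the dotted line is the background percentile of 4.96 where a panel reaches it. All 4 DM_AngIV arrays lie above all 4 NC arrays for Insr, Igf1r, Pik3r1, Akt1 and Eif4ebp1.

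The receptors come first in the chain. Insr, the insulin receptor, was at 9.40, 9.23, 9.39 and 9.68 in DM_AngIV replicates 1 to 4, at 9.37, 9.43, 9.11 and 8.99 in DM and at 8.77, 8.85, 8.85 and 9.15 in NC. Every DM_AngIV array lay above every NC array, while in DM only replicates 1 and 2 did. Its log2 fold change in DM_AngIV against NC was 0.52 ± 0.13 (SE), 1.43-fold with a 95% interval of 1.18 to 1.74, and it did not pass (limma adjusted p = 0.0727). The value was 0.32 in DM against NC (limma adjusted p = 0.484) and 0.20 in DM_AngIV against DM (0.759). When the test was limited to genes above background in at least 4 arrays, Insr passed in DM_AngIV against NC (limma adjusted p = 0.0276), and over all alternatives other than single omissions its adjusted p ran from 0.0111 to 0.310.

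Igf1r, the IGF1 receptor, was at 5.39, 5.48, 5.49 and 5.58 in DM_AngIV, at 5.83, 5.64, 5.48 and 5.17 in DM and at 5.23, 4.89, 5.05 and 5.11 in NC. It was close to background, which NC replicate 2 did not exceed. DM replicate 4 alone among the 8 diabetic arrays fell within the NC range. The log2 fold change was 0.42 ± 0.13 in DM_AngIV against NC (limma adjusted p = 0.143) and 0.46 ± 0.13 in DM against NC (0.302), the largest ratio to its error among the members in that second comparison. Between DM_AngIV and DM the difference was -0.04, with a 95% interval of -0.32 to 0.24.

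Neither adaptor passed the test in any comparison. Irs1 was at 4.98, 5.09, 4.81 and 4.75 in DM_AngIV, at 5.15, 4.66, 4.96 and 4.49 in DM and at 4.62, 4.70, 4.76 and 4.82 in NC. It exceeded background in 2 of 4 DM_AngIV arrays, 2 of 4 DM arrays and 0 of 4 NC arrays, so no fold is given, and its smallest limma adjusted p over the 3 comparisons was 0.591. Irs2 was at 5.81, 6.09, 6.50 and 6.84 in DM_AngIV, at 6.60, 6.90, 6.53 and 6.62 in DM and at 6.33, 6.84, 6.30 and 6.45 in NC. Its values in DM_AngIV spread over 1.03, wider than in DM (0.365) or NC (0.533). DM_AngIV replicates 1 and 2 lay below all DM and NC mice, while replicate 4 matched the highest NC mouse. The log2 fold change was -0.17 in DM_AngIV against NC (95% interval -0.57 to 0.23; limma adjusted p = 0.748), 0.18 in DM against NC (0.838) and -0.35 in DM_AngIV against DM (0.700). The spread of Irs2 within groups was larger than that of 91.8% of all genes.

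Pik3r1 encodes the regulatory subunit p85-alpha and its shorter forms, which hold the catalytic subunit and bind phosphorylated IRS proteins. It was at 8.38, 8.88, 8.67 and 8.98 in DM_AngIV, at 8.53, 8.49, 7.98 and 7.87 in DM and at 7.97, 7.60, 7.93 and 7.90 in NC. Every DM_AngIV array was above every NC array, and the DM arrays spanned the gap, with replicates 1 and 2 in the DM_AngIV range and replicate 4 within the NC range. The level averaged 8.73 ± 0.26 in DM_AngIV, 8.22 ± 0.34 in DM and 7.85 ± 0.17 in NC (SD, n = 4 each). Pik3r1 rose by 0.87 ± 0.17 in DM_AngIV against NC, 1.83-fold with a 95% interval of 1.43 to 2.35 (limma adjusted p = 0.0218). The 0.51 ± 0.17 between DM_AngIV and DM (limma adjusted p = 0.600) and the 0.37 ± 0.17 between DM and NC (0.539) did not pass, so DM cannot be placed apart from either neighbour.

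The Pik3r1 call depended on single mice. It was lost without DM_AngIV replicate 2, 3 or 4 or without NC replicate 2 or 4, where the limma adjusted p lay between 0.0530 and 0.0753. The log2 fold change stayed between 0.79 and 0.99 over all 12 single omissions. With the 5 Myl7-positive arrays left out it was 0.97 (limma adjusted p = 0.0712), and with the atrial marker mean as a covariate it was 1.03 (0.0128).

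Pik3ca, the catalytic subunit p110-alpha that makes PIP3, was at 7.80, 7.78, 7.98 and 7.91 in DM_AngIV, at 7.78, 7.87, 7.67 and 7.59 in DM and at 7.54, 7.73, 7.81 and 7.86 in NC. The 3 groups overlapped. Its log2 fold change was 0.13 in DM_AngIV against NC (95% interval -0.09 to 0.36), -0.01 in DM against NC (-0.23 to 0.22) and 0.14 in DM_AngIV against DM (-0.09 to 0.36).

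**Figure D2:**
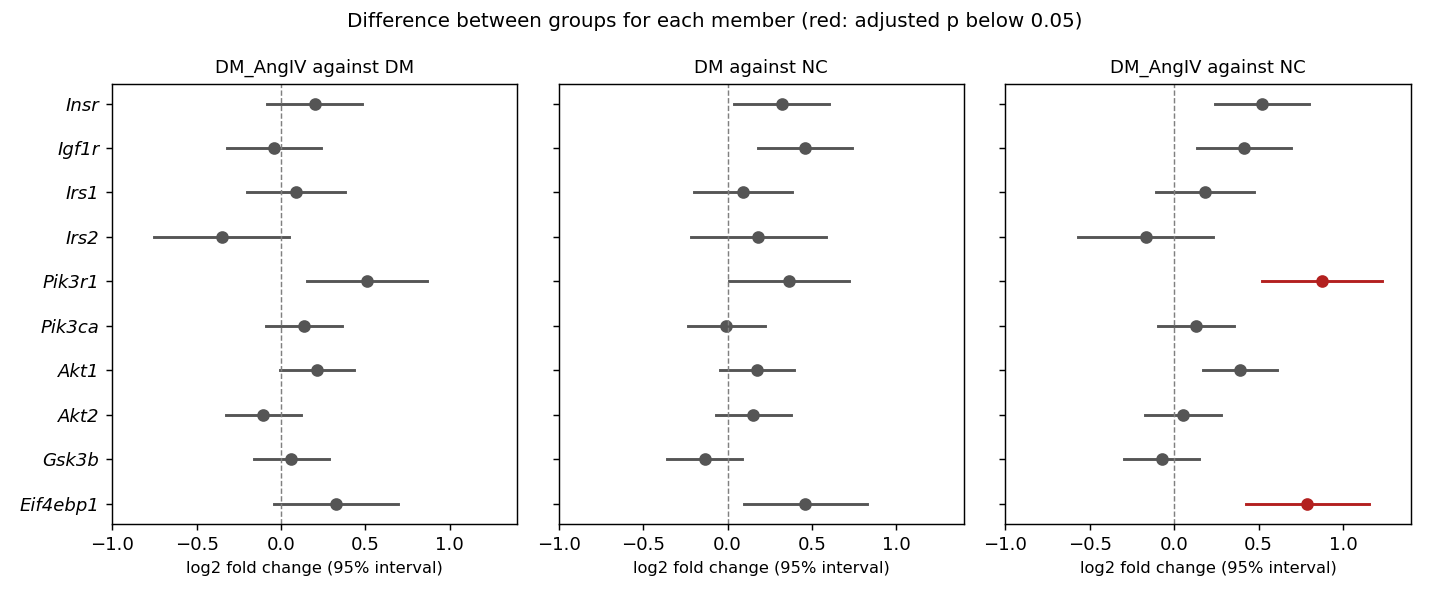
Log2 fold change of each member with its 95% interval from limma, in DM_AngIV against DM, DM against NC and DM_AngIV against NC; red marks an adjusted p below 0.05. Pik3r1 (0.87) and Eif4ebp1 (0.79) are red in DM_AngIV against NC, and no member is red in the other panels.

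Akt1, the more widely expressed of the AKT kinases, was at 8.71, 8.69, 8.62 and 8.67 in DM_AngIV, at 8.63, 8.46, 8.38 and 8.36 in DM and at 8.12, 8.27, 8.29 and 8.45 in NC. The DM_AngIV mice sat in a band of 0.0919 above every NC mouse. Its log2 fold change was 0.39 ± 0.10 in DM_AngIV against NC, 1.31-fold with a 95% interval of 1.12 to 1.52, and did not pass (limma adjusted p = 0.0843). Limited to genes above background in at least 4 arrays, the test called Akt1 too (limma adjusted p = 0.0271), with adjusted p from 0.0172 to 0.335 over the same alternatives. It had 0.17 in DM against NC (limma adjusted p = 0.665) and 0.21 in DM_AngIV against DM (0.676).

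Akt2, the AKT form most tied to insulin-driven glucose uptake, overlapped between all 3 groups. It was at 6.73, 6.71, 6.72 and 6.56 in DM_AngIV, at 6.62, 6.65, 6.90 and 6.96 in DM and at 6.55, 6.67, 6.59 and 6.72 in NC. DM replicates 3 and 4 were its highest arrays. The log2 fold change was 0.05 in DM_AngIV against NC (95% interval -0.17 to 0.28), 0.15 in DM against NC (-0.07 to 0.38) and -0.10 in DM_AngIV against DM (-0.33 to 0.12).

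Gsk3b, the kinase that AKT inhibits to allow glycogen synthesis, was the member with the narrowest range over the 12 arrays, 0.399. It was at 8.14, 8.07, 7.83 and 8.03 in DM_AngIV, at 7.91, 7.93, 8.04 and 7.94 in DM and at 8.01, 7.95, 8.18 and 8.23 in NC. No diabetic array exceeded the highest NC array, and the groups overlapped. The log2 fold change was -0.07 in DM_AngIV against NC (95% interval -0.29 to 0.15), -0.13 in DM against NC (-0.36 to 0.09) and 0.06 in DM_AngIV against DM (-0.16 to 0.28).

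Eif4ebp1, whose product holds back the cap-binding factor eIF4E, was at 7.75, 7.91, 8.14 and 8.49 in DM_AngIV, at 7.72, 8.24, 7.59 and 7.42 in DM and at 7.32, 7.30, 7.25 and 7.27 in NC. The SD was 0.321 in DM_AngIV, 0.355 in DM and 0.0316 in NC. All 8 diabetic arrays were above all NC arrays, and it was the only member for which all 4 DM arrays were. Of all genes 2.45% were higher in DM than in NC without overlap. Eif4ebp1 rose by 0.79 ± 0.17 in DM_AngIV against NC, 1.73-fold with a 95% interval of 1.34 to 2.23 (limma adjusted p = 0.0396). Its 0.46 ± 0.17 in DM against NC did not pass (limma adjusted p = 0.442), nor did the 0.33 ± 0.17 between DM_AngIV and DM (0.692). The call in DM_AngIV against NC was lost without DM_AngIV replicate 2, 3 or 4, without DM replicate 3 or without any 1 of the 4 NC replicates, at limma adjusted p between 0.0503 and 0.118, while the log2 fold change stayed between 0.65 and 0.90. With the 5 Myl7-positive arrays left out it was 0.79 (limma adjusted p = 0.160).

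Over the 10 members the median log2 fold change in DM_AngIV against NC was 0.28, against -0.01 over all genes, and 8 members had a positive value where 48.5% of all genes did. For DM against NC the median was 0.18, against 0.00 over all genes, with 8 positive values where 49.8% of all genes were positive. In DM_AngIV against DM it was 0.11, against 0.00, with 7 positive values where 49.8% were. These comparisons share arrays, so their values do not repeat each other independently. Because the members were chosen with earlier results of these data known, the shares in this paragraph describe them and do not test them. At an unadjusted p below 0.05 there were 5 members in DM_AngIV against NC, all higher, where 8.11% of all genes were higher, and 4 in DM against NC, all higher, where 4.69% were. In DM_AngIV against DM there was 1, Pik3r1, where 3.98% were. With limma adjustment 0 members were called in DM against NC, where 0.0154% of all genes were called, all of them lower, and 0 in DM_AngIV against DM, where 0% were.

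The DM mice differed among themselves. DM replicates 1 and 2 both lay above replicates 3 and 4 for 6 members, which were Insr, Igf1r, Pik3r1, Pik3ca, Akt1 and Eif4ebp1, and below them for Akt2 and Gsk3b. This split was noticed in the values. The share of all genes with such a split was not counted, so it is not shown to be particular to the members. The mean over 17 FoxO target genes, none of them a member, was 8.42 and 8.29 in DM replicates 1 and 2 and 7.95 and 7.87 in replicates 3 and 4. In DM_AngIV it was 7.98, 8.30, 8.25 and 8.40, and in NC 7.75, 7.78, 7.84 and 7.72. DM_AngIV replicate 1 was the lowest of its group both for that list and for Pik3r1 and Eif4ebp1, and replicate 4 the highest. Among the DM mice other lists split like the FoxO list. The fibroblast marker mean was 7.63 and 7.61 in replicates 1 and 2 and 7.33 and 7.26 in replicates 3 and 4. Ligands and binding proteins of the pathway had 6.67 and 6.54 against 6.36 and 6.31. The ventricular marker mean split the other way, at 11.15 and 11.10 against 11.21 and 11.19. The split is thus not particular to the FoxO list. Without DM replicate 1 the log2 fold change of Igf1r in DM against NC was 0.36 and that of Pik3r1 0.26.

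**Figure D3:**
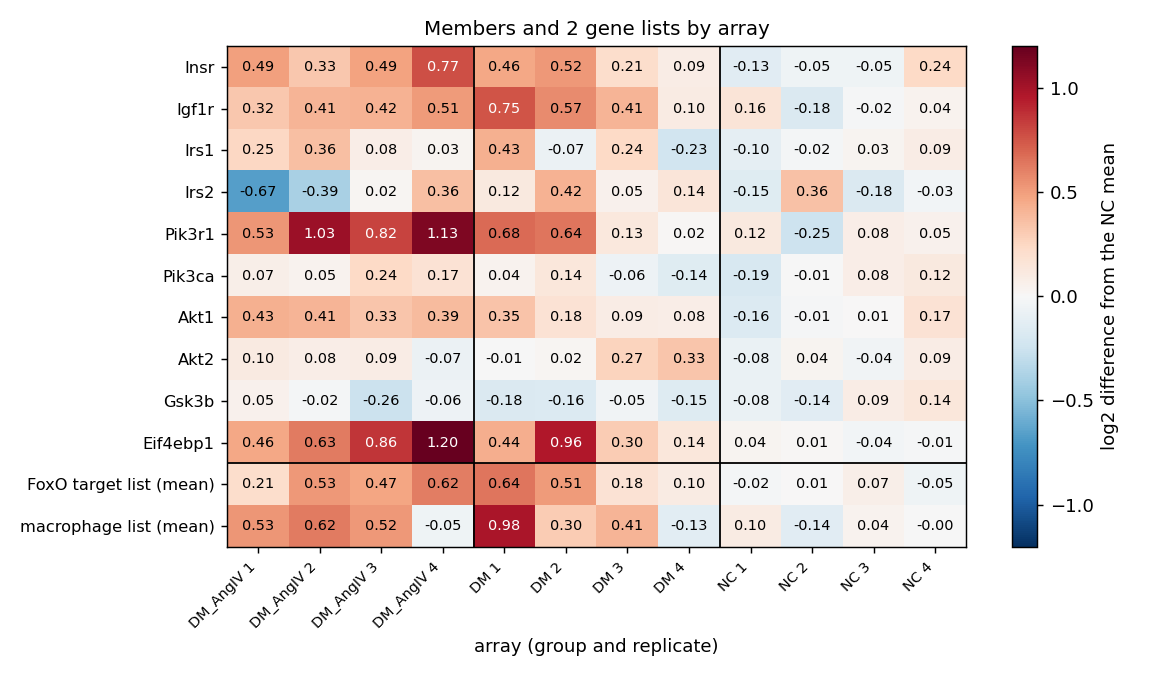
Difference of each array from the NC mean (log2, colour and number) for the 10 members and for the means of the FoxO target and macrophage lists, with arrays in columns by group. Pik3r1 runs from 0.53 to 1.13 in DM_AngIV, Eif4ebp1 from 0.46 to 1.20, and DM replicates 1 and 2 are higher than 3 and 4 for both genes and for the FoxO target list.

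Of 9 macrophage markers listed 8 were analysed, and all 8 had positive values in DM_AngIV against NC and in DM against NC, with medians of 0.30 and 0.33, and 0 were called in either. Their mean level lay between 5.66 and 6.34 in DM_AngIV, between 5.58 and 6.69 in DM and between 5.57 and 5.81 in NC, and Ccr2, the marker of recruited monocytes, was not above background on any array. DM_AngIV replicate 4, with the highest Pik3r1 and Eif4ebp1 values of all 12 arrays, had a macrophage mean of 5.66, inside the NC range. DM replicate 1 had the highest macrophage mean, 6.69, and the highest Igf1r and Irs1 values. The means of the endothelial markers overlapped between groups, at 7.14 to 7.51 in DM_AngIV, 7.06 to 7.45 in DM and 7.05 to 7.32 in NC. Fibroblast marker means also overlapped, at 7.18 to 7.54 in DM_AngIV, 7.26 to 7.63 in DM and 7.45 to 7.83 in NC. Of these 6 markers 5 were negative in DM_AngIV against NC (median -0.17) and 5 in DM against NC (median -0.11), with 0 called in either. The mean of smooth muscle and pericyte markers ran from 6.35 to 6.74 in DM_AngIV, from 5.91 to 6.44 in DM and from 6.02 to 7.50 in NC, with 0 of 7 called in any comparison. Beyond these values the part of other cell types in the member results was not tested.

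Beyond the members, 64 other genes of the pathway were listed, with earlier results of these data known, and 56 of them analysed here. In DM_AngIV against NC 2 were called, Pik3ip1 and Foxo3, both higher, where 0.728% of all genes were called higher and 0.287% lower. The median log2 fold change of the 56 was 0.04. By role the medians lay between -0.11, for ligands and binding proteins, and 0.10, for mTORC1 and translation. Pik3ip1, a membrane protein that binds PI3K and lowers its activity, was at 8.45, 8.81, 8.71 and 9.21 in DM_AngIV, at 8.76, 8.91, 8.14 and 8.36 in DM and at 7.95, 7.00, 7.52 and 7.61 in NC. All 8 diabetic arrays were above all NC arrays. It rose by 1.28 ± 0.21 in DM_AngIV against NC, 2.42-fold (limma adjusted p = 0.0110), and was called without any 1 of the 12 arrays (highest adjusted p 0.0396) and with the 5 Myl7-positive arrays left out (0.0413). Its 1.03 ± 0.21 in DM against NC did not pass (limma adjusted p = 0.123), and DM_AngIV against DM gave 0.25 (0.807).

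Foxo3, a FoxO factor that AKT phosphorylates, was at 5.98, 6.34, 6.36 and 6.29 in DM_AngIV, at 5.96, 5.95, 5.89 and 6.01 in DM and at 5.74, 5.77, 5.54 and 5.73 in NC. The DM arrays stood between the other groups, above all NC arrays and overlapping DM_AngIV only at its replicate 1. Foxo3 rose by 0.55 ± 0.11 in DM_AngIV against NC (limma adjusted p = 0.0236), a call lost without DM_AngIV replicate 2, 3 or 4 or any 1 of the 4 NC replicates (0.0515 to 0.0881) and with the 5 Myl7-positive arrays left out (0.208). It had 0.26 in DM against NC (limma adjusted p = 0.488) and 0.29 in DM_AngIV against DM (0.620). Foxo1 had 0.02 in DM_AngIV against NC (limma adjusted p = 0.965).

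By role, the gene nearest the threshold in DM_AngIV against NC was Igfbp5, which binds IGFs outside the cell, among ligands and binding proteins, with a log2 fold change of -0.38 (limma adjusted p = 0.190). Among adaptors it was Shc1, which couples receptors to Ras, with 0.35 (0.216). Among receptor inhibitors Grb14, which blocks the kinase of the insulin receptor, had -0.54 (0.158), with every DM_AngIV array below every NC array, as for 4.20% of all genes. Of the mTORC2 and AKT regulators Rictor, the subunit that defines mTORC2, had 0.39 (0.257). Gsk3a, the sister kinase of Gsk3b, had 0.10 (0.672) among AKT substrates of glucose use, and Rps6, a ribosomal protein phosphorylated downstream of mTORC1, had 0.22 (0.307). Of the other PI3K regulatory subunits, Pik3r3 had -0.47 (0.118) with all DM_AngIV arrays below all NC arrays, opposite in sign to Pik3r1, and Pik3r2 was not above background on any array; both names were picked with the values known. The glucose-use genes Slc2a4, the insulin-responsive transporter GLUT4, and Hk2, a hexokinase, had values near 0, -0.03 (0.938) and 0.02 (0.976), and Slc2a4 was likewise named after its value was seen.

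**Figure D4:**
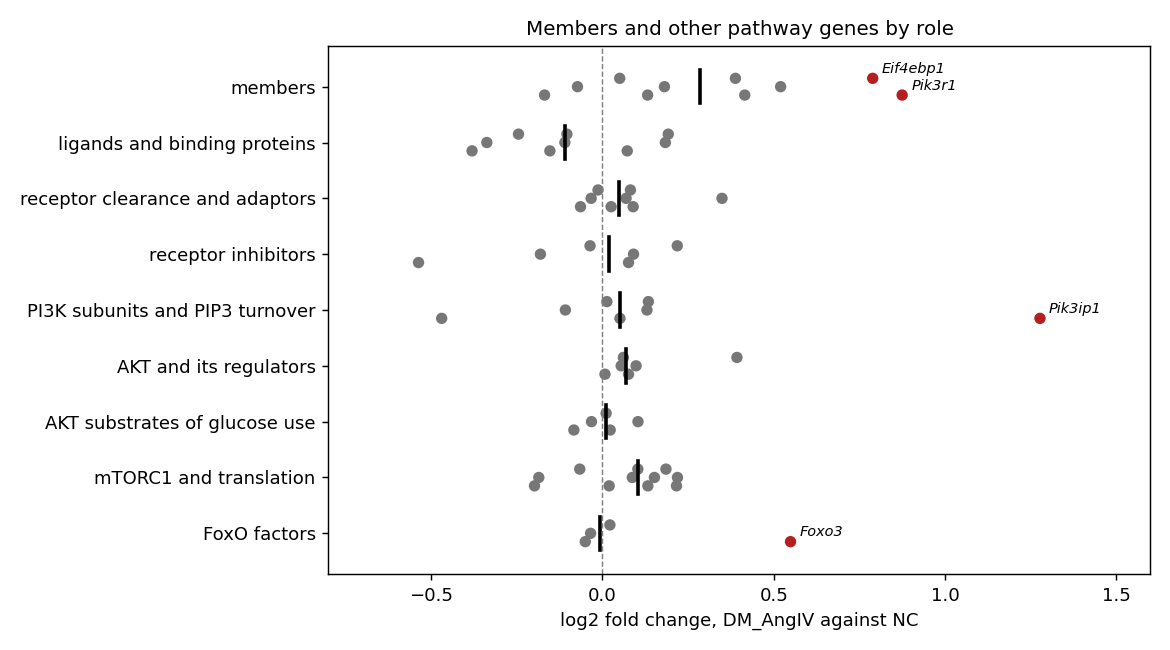
Log2 fold change in DM_AngIV against NC of the 10 members (top) and of the other analysed pathway genes by role. Each point is a gene, black bars are medians, and red points passed at an adjusted p below 0.05. Pik3ip1 (1.28), Pik3r1 (0.87), Eif4ebp1 (0.79) and Foxo3 (0.55) are the red points.

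Between DM and NC 0 of these 56 pathway genes were called by limma, and 7 had an unadjusted p below 0.05, 3 higher and 4 lower, against 4.69% and 4.26% of all genes. The gene nearest the threshold by role was Pik3ip1, as above, then Igfbp5 (log2 fold change -0.38; limma adjusted p = 0.404), Foxo3, Hk2 (-0.45; 0.525), Grb14 (-0.36; 0.571), Shc1 (0.19; 0.717), the mTORC2 subunit gene Rictor (0.21; 0.751) and Deptor, an mTOR inhibitor that was not above background on any array of either group (0.789). In DM_AngIV against DM 0 were called, and 4 had an unadjusted p below 0.05, 2 higher and 2 lower, against 3.98% and 3.50% of all genes. The nearest by role were Foxo3 and Hk2 (0.48; 0.643), Mlst8, a subunit of both mTOR complexes (0.24; 0.677), the cap-binding factor Eif4e (0.23; 0.679), the secreted IGF-binding relative Igfbp7 (-0.23; 0.681) and Pik3cb, the p110-beta subunit (0.16; 0.756). Socs1, an inhibitor of cytokine and insulin receptor signalling, and Sh2b2, an adaptor of the insulin receptor, were not above background on any array of either group (0.617 and 0.784).

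Of the 17 FoxO target genes 15 had a positive value in DM_AngIV against NC, where 48.5% of all genes did. In that comparison 3 were called, all higher, where 0.728% of all genes were called higher. Their median log2 fold change was 0.45 in DM_AngIV against NC, 0.32 in DM against NC, with 14 positive and 0 called, and 0.05 in DM_AngIV against DM, with 12 positive and 0 called. Of all genes 49.8% were positive in DM against NC, and 49.8% in DM_AngIV against DM. This list too was chosen with earlier results of these data known, so these shares describe it and do not test it. The 3 called genes were Fbxo32, a muscle ubiquitin ligase, with 0.83 (limma adjusted p = 0.00699), Sesn1, a stress-induced inhibitor of mTORC1, with 1.15 (0.00834), and Cited2, a transcriptional coregulator, with 1.21 (0.0126), the last named after its value was seen. Fbxo32 had 0.51 in DM against NC (0.201), and the mitophagy receptor Bnip3 0.55 (0.308). In DM_AngIV against DM Sesn1 had 0.60 (0.513) and the ubiquitin ligase Trim63 0.49 (0.600). The list did not move as 1, with 3 negative values in DM against NC and 5 in DM_AngIV against DM. Sesn3 had -0.32 in DM against NC (limma adjusted p = 0.390). Pdk4 had 1.41 in DM against NC (0.308) but -0.81 in DM_AngIV against DM (0.682). Both were named after their values were seen.

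Of all 19505 genes, those whose values were most alike those of Pik3r1 over the 12 arrays were Adcy6, an adenylyl cyclase (Pearson r = 0.968, Spearman rho = 0.916), Sesn1 (0.966 and 0.937) and Lrrc58 (0.962 and 0.965). These coefficients describe arrays that include the differences between the 3 groups. Adcy6 was at 8.78, 8.87, 8.70 and 9.03 in DM_AngIV, at 8.66, 8.51, 8.11 and 7.99 in DM and at 7.95, 7.64, 7.91 and 7.89 in NC. Since Adcy6 was picked for its likeness to Pik3r1 on these arrays, its order among the DM mice is no separate observation.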

How the data were processed

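RNA from myocardium was measured on single-colour arrays, 1 per mouse, with 6 µg RNA labelled for each, per the labels. The authors deposited 1 table of log2 values made with RMA, per the submitters' processing notes, with no version named there. RMA in general corrects background, sets arrays to a common distribution and summarises probes, and can compress folds near background. Of 29129 probe sets, 19572 carried a single gene symbol in the platform's annotation table, and for 55 symbols with several probe sets the highest-mean one was kept. Groups were compared in 1 limma 3.58.1 model (R 4.3.3) with a mean per group over 12 arrays, two-sided. Precision is limited by the number of arrays. Errors of differences are SE and those of levels SD. The p-values reflect variation among the mice of these groups. The fit was tested on simulated data. The members and gene lists were chosen with earlier results of these data known. Named genes were all members, the gene with the smallest p in each of 8 role groups, called pathway genes, 2 FoxO targets per comparison and the 3 genes most like the leading member. Promoter sequences are from RefSeq (GRCm38.p6). Alternatives covered the arrays fitted, the block, dim genes, scaling, weights, the variance prior, the probe set rule, atrial signal and each array left out. Figures used matplotlib 3.10.9 in Python 3.11.15.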

Additional observations from a re-analysis of the deposited data

Results flagged for a closer look

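Of the 30 sets of 4 mice formed by 10 members and 3 groups, 1 held a mouse far from the others. Akt2 was at 6.56 in DM_AngIV replicate 4, while the other 3 DM_AngIV mice lay between 6.71 and 6.73. Chance alone sets a mouse apart in about 5% of such groups.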

How the results depend on the processing

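The count of members called in DM_AngIV against NC, 2, was 0 with a replicate block and without the arrays with Myl7 above background, 4 with only genes above background in at least 4 arrays and 4 with a trend and robust variance prior, the last 2 adding Insr and Akt1. It lay between 0 and 2 when each array was left out. The count of other pathway genes called there, 2, was 1 with a replicate block, 1 without the arrays with Myl7 above background, and between 1 and 3 when each array was left out. Over all genes 198 were called there, 115 with the block, 514 with that prior, and 81 to 302 when each array was left out. The all-gene count also fell without the Myl7 arrays, so the fall in that setting is not particular to the members. With the filter 567 were called, counted only among genes above background in at least 4 arrays. The number of genes passing that filter is not given here, so the 4 members called with it have no all-gene share beside them. With the replicate block the limma adjusted p was 0.0519 for Pik3r1 and 0.0736 for Eif4ebp1. The replicate numbers are not shown to pair mice, since correlations of same-numbered deviations lay between -0.098 and 0.171. In DM against NC and in DM_AngIV against DM both counts were 0 under all alternatives run. Of 660 alternative values of the 30 member differences, 14 in 7 differences changed sign. In DM_AngIV against DM, Igf1r was 0.065 with the atrial covariate, 0.010 without the Myl7 arrays and -0.16 to 0.058 when each array was left out (positive without DM replicate 1). Irs1 was -0.057 without the Myl7 arrays and -0.018 to 0.20 when each array was left out (negative without DM replicate 4), and Gsk3b was -0.027 without the Myl7 arrays. In DM against NC, Irs1 was -0.022 to 0.20 when each array was left out (negative without DM replicate 1), Irs2 was -0.11 without the Myl7 arrays, and Pik3ca was -0.071 to 0.040 when each array was left out (positive without DM replicate 3 or 4 or NC replicate 3 or 4). In DM_AngIV against NC, Akt2 was -0.036 with the atrial covariate and -0.010 without the Myl7 arrays. None of these was called. The omission of Myl7 arrays leaves 1 DM and 2 NC arrays. Irs1 lies near background, which limits it. The cause of the lost calls was not tested.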
